A study of Homo sapiens with 6 samples.

Results

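The 6 genes described here encode the machinery of creatine: its transporter (SLC6A8), the enzymes that make it (GATM and GAMT) and the creatine kinases that use it (CKB and the paired copies CKMT1A and CKMT1B). They are 6 of the 28847 genes in the deposited table, found there by symbol. SLC6A8 was chosen by its measured fold change between the RBP4 and control libraries, so its difference is given as a description without a test. The other 5 were taken for their place in the pathway, though earlier results of these data were known when they were chosen. The libraries came from human cells labelled THP-1, a monocytic leukaemia line, and the series presents them as a model of unpolarized (M0) macrophages. In 3 libraries the cells were labelled as given recombinant human RBP4, the plasma carrier of retinol, and 3 libraries labelled THP-1 alone are the control. The labels give no dose, time or differentiation step, name no vehicle, and do not say that the libraries of a group came from separate cultures, so the p-values measure the spread between these libraries, which may be technical.

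Creatine is a small store of high-energy phosphate. GATM joins arginine and glycine into guanidinoacetate, GAMT methylates that product to creatine with S-adenosylmethionine as donor, and SLC6A8 carries finished creatine into cells together with sodium and chloride. Creatine kinases then move phosphate between ATP and creatine, at mitochondria through CKMT1 and in the cytosol through CKB, the brain-type subunit. Most cells rely on uptake, since synthesis is concentrated in kidney, pancreas and liver, and in mouse macrophages creatine uptake through Slc6a8 has been linked to polarization.

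Sequencing depth was even, with between 15994483 and 16420517 reads recovered in the RBP4 libraries and between 15202000 and 16149118 in the control libraries. Levels are given as normalized reads, the authors' gene reads divided by 1 size factor per library. A count of 0 leaves room for up to 3 reads, which equalled between 2.83 and 2.90 normalized reads in the RBP4 libraries and between 3.02 and 3.21 in the control libraries (counting error only). The label was checked against marker lists. Of 12 monocyte and macrophage markers, 10 were analysed, 2 (CD33 and SPI1) reached 10 CPM in all 6 libraries, and CD14, a monocyte co-receptor for lipopolysaccharide, was listed at 0 in the RBP4 libraries and averaged 1.39 normalized reads in the control. All 12 erythroid markers, GATA1 and RHAG among them, reached that level throughout. The data thus run counter to what a monocytic line is named for, and the groups are called by their labels.

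Transcripts of the creatine transporter and of the main creatine kinase were both lower in the RBP4 libraries, while those of the methyltransferase of creatine synthesis did not pass the test. SLC6A8 averaged 3695 ± 106 normalized reads in the RBP4 libraries and 11255 ± 441 in the control libraries (mean ± SD, n = 3 per group). CKB averaged 6406 ± 152 in the RBP4 libraries and 8861 ± 210.2 in the control libraries. GAMT stood at 921 ± 80.9 and 915 ± 9.99 normalized reads in the RBP4 and control libraries. GATM, CKMT1A and CKMT1B were present at low levels, below 100 normalized reads in every library.

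**Figure D1:**
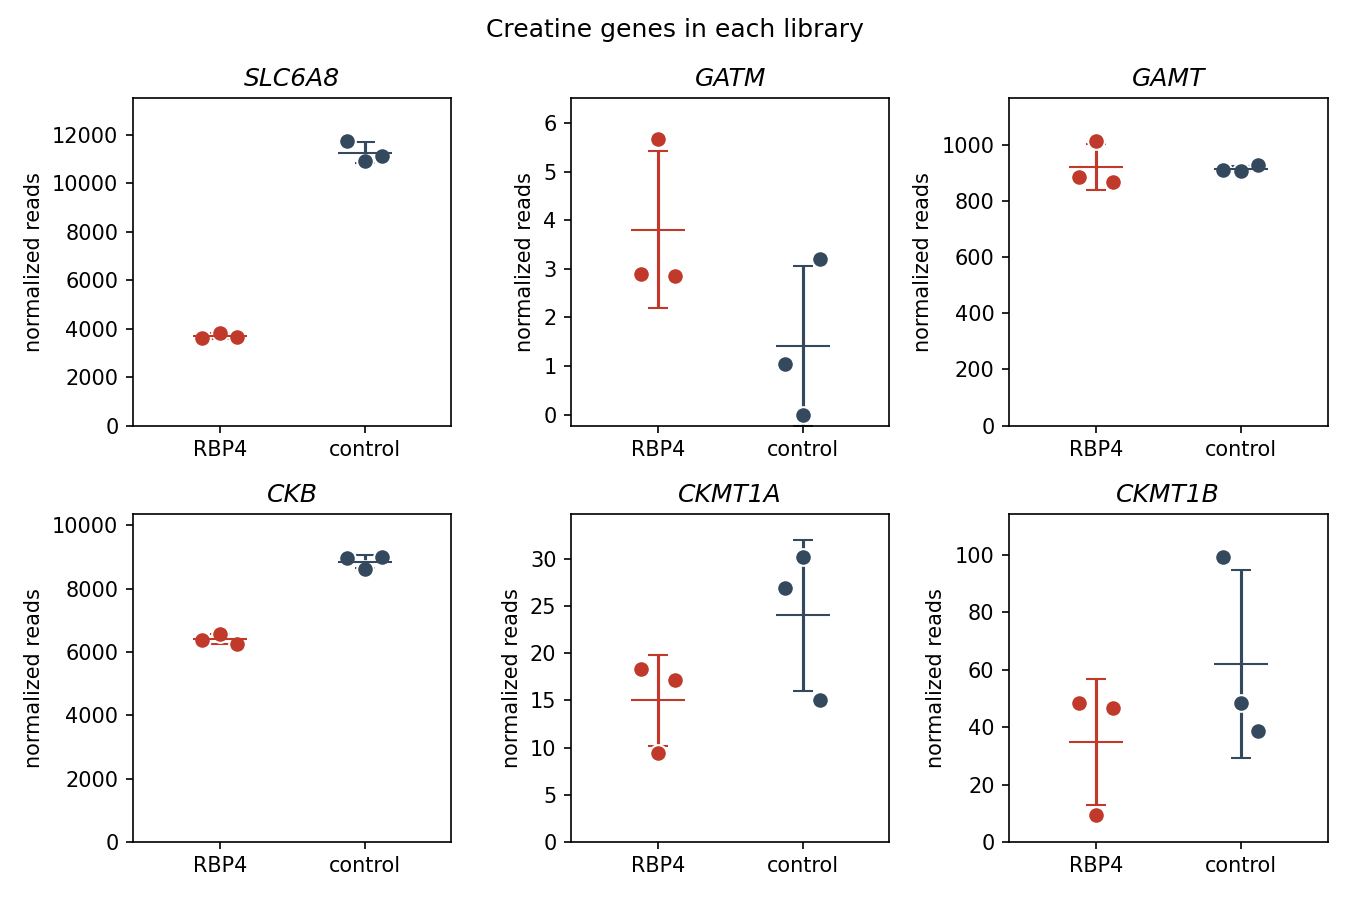
Normalized reads of the 6 creatine genes in each library, with RBP4 libraries in red on the left and control libraries in blue on the right. Points are libraries, horizontal lines are group means and whiskers are 1 SD (n = 3 per group). SLC6A8 and CKB are separated between the groups, and the other 4 genes overlap.

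SLC6A8 (ENSG00000130821, chrX:153688099-153696593 on GRCh38, plus strand) is a protein-coding gene whose product is the sodium- and chloride-dependent creatine transporter. It had 3627, 3817 and 3642 normalized reads in RBP4 libraries 1, 2 and 3, against 11747, 10896 and 11122 in control libraries 1, 2 and 3. All RBP4 libraries lay below all control libraries, and the spread within each group was small beside the gap. The RBP4 mean was 32.8% of the control mean, 3.05-fold lower, with a log2 fold change of -1.61 (SE 0.029) on the log2(value + 1) scale. The authors' deposited table gives the same log2 fold change of -1.61. In bulk RNA, fewer cells that express a gene and less RNA per cell cannot be told apart.

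Among the 15676 genes tested, SLC6A8 ranked 36 from the lowest log2 fold change. Of the 3828 tested genes that averaged at least 1000 normalized reads it ranked 2, after MS4A4A. The 3 genes just before it over all genes tested were AC132938.5 and EGLN3 at -1.64 and RF00093 at -1.65, and the 3 just after it were AC099811.6 at -1.59 and AL162274.2 and RF00017 at -1.58. Apart from EGLN3 and AC132938.5, which averaged 239 and 124 normalized reads in the RBP4 libraries and 747 and 388 in the control libraries, these rank neighbours were low, with 4.46 to 6.70 normalized reads in the RBP4 libraries and 15.6 to 23.3 in the control libraries. SLC6A8 thus stood far above its rank neighbours in level. RF00093, AC099811.6, AL162274.2 and RF00017 were under 10 normalized reads in every RBP4 library. They passed the filter of at least 10 in at least 3 libraries only through the control libraries. Their log2 fold changes, and so their ranks, are uncertain (SE 0.39 to 0.46). The ranks of SLC6A8 describe the values for which it was chosen.

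**Figure D2:**
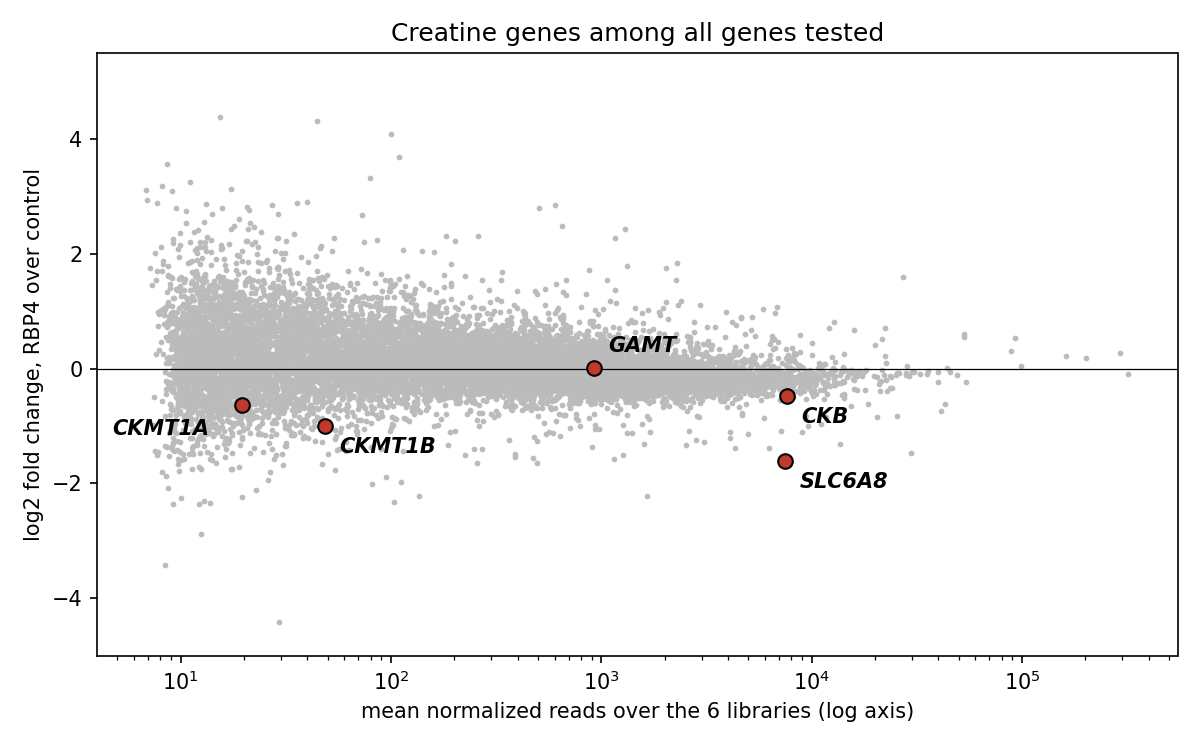
Log2 fold change of RBP4 over control (vertical axis) against mean normalized reads over the 6 libraries (log axis) for the 15676 genes tested, in grey, with the 5 creatine genes that passed the filter in red. SLC6A8 lies at -1.61 and CKB at -0.47 at the abundant end, GAMT lies at 0.0065, and CKMT1A and CKMT1B lie at the low end.

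The pattern of SLC6A8 over the 6 libraries was matched most closely by GSDME, INSIG1, ALDOC, EGLN3 and LDHA, in that order, out of 10523 other genes averaging at least 100 normalized reads. Likeness was the Euclidean distance between profiles of log2(value + 1) centred on their mean over the 6 libraries, and it ran from 0.12 for GSDME to 0.18 for LDHA. GSDME, a pore-forming gasdermin, had 194, 195 and 203 normalized reads in RBP4 libraries 1, 2 and 3, against 601, 551 and 578 in control libraries 1, 2 and 3. ALDOC is a glycolytic aldolase, LDHA makes lactate from pyruvate, EGLN3 is an oxygen-sensing hydroxylase and INSIG1 restrains cholesterol synthesis. Each of these 5 genes lay lower in every RBP4 library than in every control library, which follows from the way they were picked.

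The start of SLC6A8 lies inside a neighbour on the opposite strand, PNCK, which encodes a calcium/calmodulin-dependent protein kinase. The library kit does not mark the strand, so reads from shared bases cannot be assigned to either gene. The overlap spans 912 bases, of which 22 are exonic in both genes, out of 5498 exonic bases of SLC6A8 and 5091 of PNCK. PNCK had 189, 231 and 227 normalized reads in RBP4 libraries 1, 2 and 3, against 546, 501 and 479 in control libraries 1, 2 and 3. The groups did not overlap, and PNCK fell 2.36-fold (log2 fold change -1.24, SE 0.084, adjusted p = 7.4e-21).

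The next genes on either side had smaller fold changes. DUSP9, a phosphatase of MAP kinases on the far side of PNCK, fell 1.41-fold, with 504 ± 12.8 normalized reads in the RBP4 libraries and 708 ± 37.3 in the control libraries (adjusted p = 3.4e-10). BCAP31, a membrane protein of the endoplasmic reticulum on the other side of SLC6A8, fell 1.16-fold (adjusted p = 3.9e-07). PNCK, DUSP9 and BCAP31 were thus all lower in the RBP4 libraries.

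**Figure D3:**
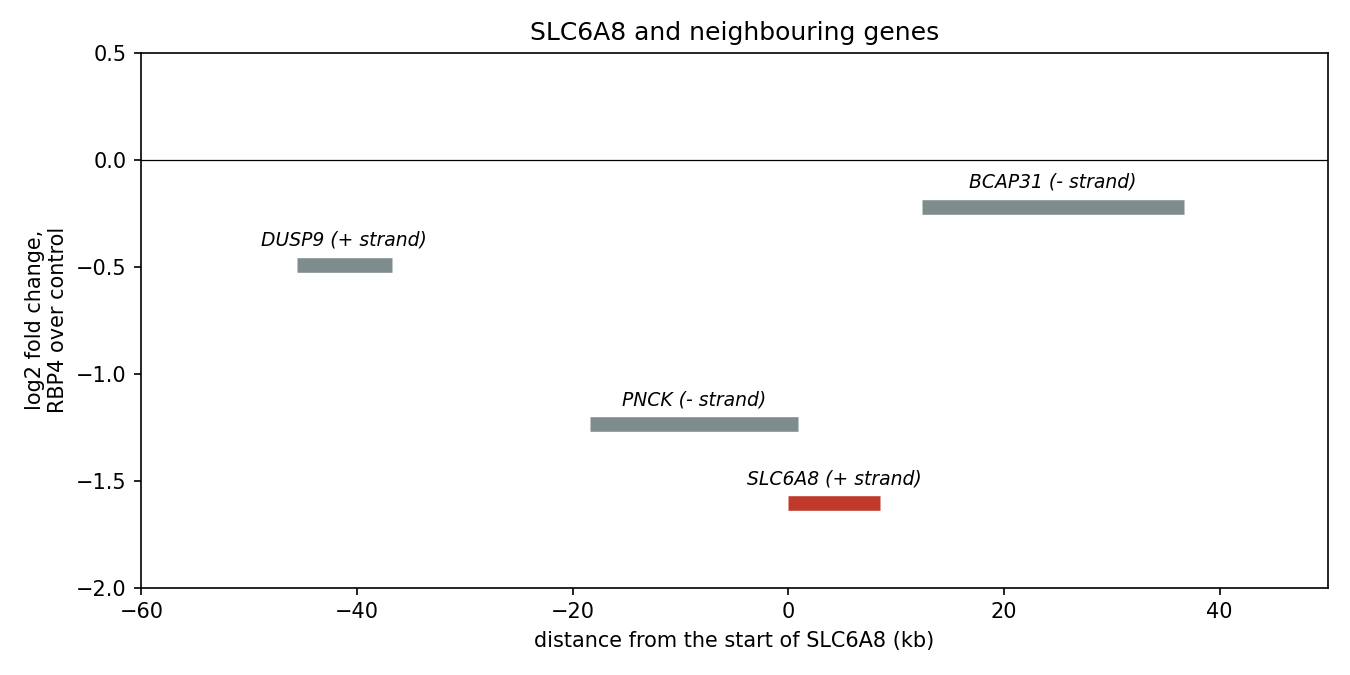
Log2 fold change of RBP4 over control for SLC6A8 (red) and its neighbours PNCK, DUSP9 and BCAP31 (grey), drawn at their position relative to the start of SLC6A8 in kb. Each bar spans the gene. SLC6A8 at -1.61 and the overlapping PNCK at -1.24 lie lowest, and DUSP9 at -0.49 and BCAP31 at -0.22 lie nearer to 0.

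SLC6A8 has a partial copy, SLC6A10P, which is not analysed here. None (0) of the 3614 stretches of 150 bases in the SLC6A8-201 transcript occurs unchanged in the annotated SLC6A10P transcripts. A read of that length that matches SLC6A8 exactly therefore has no equally exact match in them.

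CKB (ENSG00000166165, chr14:103519659-103523111 on GRCh38, minus strand) encodes the cytosolic brain-type creatine kinase subunit. It had 6382, 6569 and 6269 normalized reads in RBP4 libraries 1, 2 and 3, against 8959, 8620.0 and 9004 in control libraries 1, 2 and 3. All RBP4 libraries lay below all control libraries. CKB fell 1.38-fold, to 72.3% of the control mean (log2 fold change -0.47, SE 0.027, 95% interval -0.52 to -0.41, adjusted p = 1.5e-24). In the authors' deposited table its log2 fold change is also -0.47, with an adjusted p of 5.1e-57. Falls were common at this level of expression: of the 3828 tested genes averaging at least 1000 normalized reads, 56.5% were lower at an adjusted p under 0.05 and 15.8% higher, with a median log2 fold change of -0.12. Among them CKB ranked 154 from the lowest.

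Beside SLC6A8, 4 members passed the filter (at least 10 normalized reads in at least 3 libraries) and were tested, and 1 of them, CKB, passed the test. The background in this comparison was high, since 50.6% of all genes tested passed in either direction, 24.5% as higher and 26.1% as lower in the RBP4 libraries, so 1 lower member in 4 is near the background. SLC6A8 and CKB were the members whose groups did not overlap, both lower, beside 56.2% of all genes tested whose groups did not overlap, 28.9% lower and 27.3% higher in every RBP4 library. GATM did not pass the filter.

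SLC6A8 and CKB are the 2 members with separated groups, so their promoter sequences are shown, each covering 250 bases before to 50 bases after the RefSeq start on GRCh38.p14, 5′ to 3′ on the strand of the gene. The window of SLC6A8 is chrX:153687676-153687975 on the plus strand and lies within the span of PNCK. The window of CKB is chr14:103522781-103523080 on the minus strand. Capitals mark matches, on either strand, to the GC box GGGCGG, the CCAAT box CCAAT and the TATA box TATAAA.
SLC6A8: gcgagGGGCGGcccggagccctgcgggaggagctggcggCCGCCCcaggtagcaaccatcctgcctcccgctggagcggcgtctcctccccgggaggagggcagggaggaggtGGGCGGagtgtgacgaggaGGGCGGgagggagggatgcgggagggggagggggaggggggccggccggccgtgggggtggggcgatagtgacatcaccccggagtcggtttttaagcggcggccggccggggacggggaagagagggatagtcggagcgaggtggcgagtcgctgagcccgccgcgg
CKB: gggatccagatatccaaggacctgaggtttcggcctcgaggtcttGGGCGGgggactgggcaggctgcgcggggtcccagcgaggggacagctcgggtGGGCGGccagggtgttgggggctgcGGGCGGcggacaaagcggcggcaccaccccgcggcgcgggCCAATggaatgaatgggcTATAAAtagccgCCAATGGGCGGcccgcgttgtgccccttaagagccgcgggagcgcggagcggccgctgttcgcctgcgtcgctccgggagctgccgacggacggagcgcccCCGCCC

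Both windows are rich in G and C, at 75.3% for SLC6A8 and 72.3% for CKB, where the median of 34943 RefSeq promoter windows of the same length is 58.7%. SLC6A8 has 4 GC boxes and neither a CCAAT nor a TATA box. CKB has 5 GC boxes, 2 CCAAT boxes that begin 87 and 57 bases before the start, and 1 TATA box between them that begins 69 bases before it; its second CCAAT box is followed directly by a GC box. GC boxes are present in 44.9% of all windows, CCAAT boxes in 34.6% and TATA boxes in 11.6%. The core of the hypoxia response element ACGTG (in 21.4% of windows), the C/EBP-ATF element TGATGNAA (3.62%), the cAMP response element TGACGTCA (1.84%) and the E-box CACGTG (7.23%), which contains ACGTG, were also searched on both strands and these letters are in neither window. RefSeq windows were found for 5 of the 6 members, and GAMT was the exception.

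GAMT (ENSG00000130005, chr19:1397026-1401570, minus strand) encodes the methyltransferase that completes creatine. It had 883.5, 1014 and 866 normalized reads in RBP4 libraries 1, 2 and 3, against 911, 908 and 926 in control libraries 1, 2 and 3. RBP4 library 2 was above all control libraries and the other RBP4 libraries were below them, so the groups overlapped. The log2 fold change was 0.0065 (SE 0.053, adjusted p = 0.93), with a 95% interval from 0.933-fold to 1.08-fold of the control level. Of its neighbours, DAZAP1, an RNA-binding protein gene, fell 1.30-fold (adjusted p = 1.6e-10), and NDUFS7, a complex I subunit gene, had 916 ± 23.5 normalized reads in the RBP4 libraries and 975 ± 79.4 in the control libraries (adjusted p = 0.17).

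GATM (ENSG00000171766, chr15:45361124-45402327, minus strand) encodes the first enzyme of creatine synthesis and was barely detected. It had 3, 6 and 3 reads in RBP4 libraries 1, 2 and 3 and 1, 0 and 3 reads in control libraries 1, 2 and 3, or 2.90, 5.67 and 2.86 normalized reads in the RBP4 libraries and 1.03, 0 and 3.21 in the control libraries. In 5 of the 6 libraries the count did not exceed 3 reads, and no fold is given. An antisense gene, AC025580.3, shares 485 exonic bases with GATM and is not analysed here, and its reads could not be told from those of GATM.

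CKMT1A (ENSG00000223572, chr15:43692886-43699222) and CKMT1B (ENSG00000237289, chr15:43593054-43604901), both on the plus strand, encode the ubiquitous mitochondrial creatine kinase of the space between the mitochondrial membranes. They are near-identical copies. The transcripts CKMT1A-204 and CKMT1B-201 of GENCODE release 29 are both 1779 bases long and differ at 4 bases, 2 of them in the coding sequence of 1251 bases, G1056A and C1086T, written as the CKMT1A base, the position counted from 1 at the start codon, and the CKMT1B base. Of 1630 stretches of 150 bases in CKMT1B-201, 82.8% occur unchanged in CKMT1A-204. Coding positions 1016 to 1105 are shown because they hold both coding differences, which are in capitals.
CKMT1A: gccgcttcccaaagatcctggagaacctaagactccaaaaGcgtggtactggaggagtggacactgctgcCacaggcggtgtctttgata
CKMT1B: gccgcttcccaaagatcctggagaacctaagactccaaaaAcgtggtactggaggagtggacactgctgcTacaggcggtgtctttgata

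How the authors' counting divided reads between copies this alike is not given in the sources used here, and the separate values are therefore uncertain. CKMT1A had 18.4, 9.44 and 17.2 normalized reads in RBP4 libraries 1, 2 and 3, against 26.9, 30.2 and 15.0 in control libraries 1, 2 and 3 (log2 fold change -0.64, SE 0.33, adjusted p = 0.10). CKMT1B had 48.3, 9.44 and 46.7 in RBP4 libraries 1, 2 and 3, against 99.4, 48.3 and 38.5 in control libraries 1, 2 and 3 (log2 fold change -0.997, SE 0.82, adjusted p = 0.38). The groups overlapped for each copy, and RBP4 library 2 was the lowest for both, with 10 reads on each. Without control library 3 the CKMT1A difference passed the test (log2 fold change -0.93, adjusted p = 0.021).

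With the copies summed, an analysis added after the data were seen, there were 66.7, 18.9 and 63.9 normalized reads in RBP4 libraries 1, 2 and 3, against 126, 78.5 and 53.5 in control libraries 1, 2 and 3. Control library 3 lay below RBP4 libraries 1 and 3, and the sum did not pass (log2 fold change -0.89, 95% interval -2.67 to 0.90, adjusted p = 0.34). A difference of the size seen for CKB is inside this interval. CKMT1B also overlaps STRC on the opposite strand over 63 exonic bases, and STRC is not analysed here.

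Genes near the other members moved in both directions. Not all of them are adjacent: EIF5 lies 174634 bases from CKB, beyond MARK3, and SORD lies 283939 bases from GATM. On the CKB side, EIF5, a translation initiation factor gene, rose to 5192 ± 163 normalized reads in the RBP4 libraries, against 2612 ± 87.2 in the control libraries (log2 fold change 0.99, adjusted p = 2.5e-38). TRMT61A, a tRNA methyltransferase gene, fell by 0.26 on the log2 scale (adjusted p = 0.013). MARK3 and AL133367.1 did not pass (adjusted p = 0.37 and 0.10). Beside GAMT, RPS15, a ribosomal protein gene, fell by 0.20 on the log2 scale (adjusted p = 3.5e-09), and AC005329.1 rose by 1.21 at a low level (adjusted p = 0.0037). Around GATM, SHF and the zinc carrier gene SLC30A4 rose by 0.53 and 0.38 on the log2 scale (adjusted p = 0.011 and 0.012), SORD, sorbitol dehydrogenase, fell by 0.26 (adjusted p = 1.0e-06), and SPATA5L1 did not pass (adjusted p = 0.73). Around the CKMT1 pair, MAP1A, which encodes a microtubule-associated protein, rose 1.93-fold (adjusted p = 4.2e-26), PDIA3, a protein disulfide isomerase gene, rose 1.18-fold (adjusted p = 1.3e-09) and CATSPER2, a sperm ion channel gene, 1.28-fold (adjusted p = 0.013). PPIP5K1, CATSPER2P1, AC011330.1 and AC011330.2 did not pass (adjusted p = 0.84, 0.26, 0.088 and 0.66). Of the genes in this paragraph that passed, TRMT61A, SLC30A4 and CATSPER2 had groups that overlapped.

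Levels of the genes were compared per kilobase of gene length, on the scale of normalized reads per kb. CKB was highest, at 2400.3 ± 56.9 in the RBP4 libraries and 3320.1 ± 78.7 in the control libraries. SLC6A8 followed at 672 ± 19.2 in the RBP4 libraries and 2047 ± 80.1 in the control libraries. GAMT came next at 383 ± 33.7 in the RBP4 libraries and 381 ± 4.16 in the control libraries. The order in both groups was CKB, SLC6A8, GAMT, CKMT1B, CKMT1A and GATM, and CKMT1B and CKMT1A, whose values are uncertain, were the neighbours in that order whose ranges overlapped, in the RBP4 libraries. Of all genes tested, SLC6A8 ranked 884 in level per kb in the RBP4 libraries and 237 in the control libraries, and CKB ranked 164 and 130.

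As counted, CKB supplied nearly all creatine kinase transcripts. The CKMT1A and CKMT1B values that enter this share are uncertain. Any reads left uncounted because they match both copies would make the CKB share too high. Its share of the summed level per kb of 5 creatine kinase genes was 98.8% ± 0.277 in the RBP4 libraries and 98.9% ± 0.348 in the control libraries. The other kinases were the muscle form CKM, with 1.91 ± 3.30 normalized reads in the RBP4 libraries and 0.345 ± 0.598 in the control libraries, and CKMT2, the mitochondrial form of heart and skeletal muscle, with 37.8 ± 8.23 and 28.2 ± 6.46 (adjusted p = 0.16). The ratio of SLC6A8 to CKB per kb was 0.280 ± 0.0035 in the RBP4 libraries and 0.617 ± 0.019 in the control libraries. The ranges of this ratio did not overlap; it contains the values for which SLC6A8 was chosen and is not tested. SLC16A12, a further creatine carrier, is not analysed here.

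Creatine kinase genes are high in muscle and brain, so markers of those tissues were examined. Of 10 muscle markers 4 were analysed, and 3 of these, MYH6, ACTA1 and MB, had at most 3 reads in any library. The fourth, the filament gene DES, had 279 ± 29.2 normalized reads in the RBP4 libraries and 325 ± 23.5 in the control libraries (adjusted p = 0.028, past the threshold in 11 of 15 settings). The summed level of the muscle list ran from 16.0 to 19.8 CPM in the RBP4 libraries and from 18.6 to 21.6 CPM in the control libraries. Of 8 neuron and glia markers 5 were analysed, with a summed level of 1.52 to 2.40 CPM in the RBP4 libraries and 1.24 to 2.23 CPM in the control libraries. The 1 that could be tested, SYT1, had 10.2 ± 1.10 and 20.8 ± 7.78 normalized reads in the RBP4 and control libraries (adjusted p = 0.034, past the threshold in 8 of 14 settings). CKB averaged 413 CPM in the RBP4 libraries and 545 CPM in the control libraries.

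The summed levels of the blood lists differed between the groups without overlap, unlike those of the muscle and neuron lists. That of the monocyte and macrophage list was 118 to 127 CPM in the RBP4 libraries and 107 to 115 CPM in the control libraries, and 3 of its 4 tested genes rose and 1 fell. ITGAM, an integrin of myeloid cells, rose to 168 ± 24.2 normalized reads in the RBP4 libraries, against 104 ± 11.4 in the control libraries (adjusted p = 6.6e-06). The erythroid list summed to 1831 to 1881 CPM in the RBP4 libraries and 2107 to 2121 CPM in the control libraries, with 5 of 12 genes higher (6 with total-read scaling), 4 lower and 3 not past the test. Passing in 9 of 12 erythroid and 4 of 4 myeloid genes stands beside 50.6% of all genes tested. TFRC, the transferrin receptor, fell to 7485 ± 215 normalized reads in the RBP4 libraries, against 14649 ± 274 in the control libraries (adjusted p = 1.7e-44) and alone accounted for 483 CPM of the erythroid sum in the RBP4 libraries and 901 CPM in the control libraries. The lower erythroid sum was thus not shared by the whole list, whose median log2 fold change was 0.047. RHAG, for instance, averaged 552 CPM in the RBP4 libraries and 470 CPM in the control libraries (adjusted p = 1.2e-07). The part of the blood lists in the SLC6A8 and CKB differences was not tested.

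Genes that supply the building blocks of creatine did not move one way. Of 16 genes of arginine, glycine and ornithine handling, 15 were analysed and 12 tested: 4 rose, 6 fell and 2 missed the threshold. Their median log2 fold change was -0.14, beside -0.0021 over all genes tested. Over all genes tested, 24.5% passed as higher and 26.1% as lower. SLC6A9, a glycine transporter of the SLC6 family, had 1010.1, 1058 and 981 normalized reads in RBP4 libraries 1, 2 and 3, against 357, 325 and 363 in control libraries 1, 2 and 3, a 2.92-fold rise (log2 fold change 1.54, SE 0.062, adjusted p = 5.7e-33). ASS1, which makes the precursor of arginine, rose 2.61-fold (adjusted p = 4.0e-28). SLC7A1, a carrier of arginine and other cationic amino acids, rose 1.38-fold and SHMT2, which makes glycine from serine in mitochondria, 1.32-fold. SHMT1, the cytosolic enzyme for the same step, fell to 605 ± 5.85 normalized reads in the RBP4 libraries, against 720 ± 23.5 in the control libraries (log2 fold change -0.25, adjusted p = 0.00021). The other 5 that fell were ARG2, a mitochondrial arginase, GCSH, of the glycine cleavage system, SLC25A15, a mitochondrial ornithine carrier, ODC1, which uses ornithine for polyamines, and OAT, ornithine aminotransferase. Their log2 fold changes were -0.69, -0.56, -0.33, -0.29 and -0.20, in that order.

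The methyl group of creatine comes from S-adenosylmethionine, and GAMT returns S-adenosylhomocysteine. Of 15 genes of that cycle, 14 were analysed and 11 tested: 2 rose, 7 fell (5 with total-read scaling, 6 with DESeq2) and 2 missed the threshold, and the median was -0.18 on the log2 scale. The shares over all genes tested were 24.5% higher and 26.1% lower, and those over genes averaging at least 1000 normalized reads were 15.8% higher and 56.5% lower. MAT2A, which makes S-adenosylmethionine outside the liver, had 6924 ± 140 normalized reads in the RBP4 libraries and 8968 ± 48.1 in the control libraries, a log2 fold change of -0.37 (adjusted p = 2.5e-20). MTR, methionine synthase, fell by 0.35 on the log2 scale (adjusted p = 6.4e-14) and ADK, adenosine kinase, by 0.40 (adjusted p = 1.5e-09).

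SLC6A8 belongs to a family of sodium-coupled carriers of amino acids and amines. Of 17 other SLC6 transporters, 10 were analysed and 5 tested: 2 rose, 1 fell and 2 missed the threshold, and the median was 0.34 on the log2 scale. Passing in 3 of 5 is near the 50.6% of all genes tested that passed in either direction. SLC6A9, which also rose, was counted above with glycine supply and is not among these 17. SLC6A6, the taurine transporter, fell by 0.37 on the log2 scale (adjusted p = 5.1e-16). SLC6A19, a carrier of neutral amino acids known from kidney and gut, rose 2.95-fold, to 163 ± 15.7 normalized reads in the RBP4 libraries, against 55.1 ± 9.71 in the control libraries (adjusted p = 5.5e-14). SLC6A13, a carrier of GABA and taurine, averaged 29.3 ± 8.29 in the RBP4 libraries and 7.24 ± 0.812 in the control libraries. All its control values were under the filter of 10 normalized reads, so it was tested only through the group where it was high. Its pass, counted in the 2 that rose and in the 3 of 5, is therefore partly set by the filter. A share was taken over the 12 SLC6 genes in the table, SLC6A8 and SLC6A9 included. SLC6A8 made up 52.6% ± 0.347 of their summed level per kb in the RBP4 libraries and 78.8% ± 0.502 in the control libraries. This share contains the SLC6A8 values by which the gene was chosen and is not tested.

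Other enzymes that move high-energy phosphate were examined beside the creatine kinases. Of 15 adenylate and nucleoside diphosphate kinases, all were analysed and 12 tested: 3 rose (2 with DESeq2), 6 fell (4 with total-read scaling, 5 with edgeR and with DESeq2) and 3 missed the threshold, and the median was -0.16 on the log2 scale. Of all genes tested 24.5% were called higher and 26.1% lower, with 56.5% lower among those averaging at least 1000 normalized reads. The adenylate kinase genes AK4 and AK3 fell by 0.58 and 0.28 on the log2 scale, and NME1, which passes phosphate between nucleotides, by 0.50. AK4, a mitochondrial form, had 1092 ± 63.2 normalized reads in the RBP4 libraries and 1637 ± 75.1 in the control libraries (adjusted p = 1.2e-17).

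CKMT1 works beside the carriers through which ATP leaves mitochondria. Of 7 genes of adenine nucleotide carriers and outer membrane porins, 6 were tested, where 4 fell, 0 rose (1 with total-read scaling) and 2 missed the threshold, and the median was -0.25 on the log2 scale. The porins VDAC1, VDAC3 and VDAC2 and the carrier SLC25A5 fell by 0.34, 0.32, 0.28 and 0.23 on the log2 scale. These genes have processed pseudogenes that can share reads, and their values carry that uncertainty. Among all genes tested 26.1% passed as lower, and among those averaging at least 1000 normalized reads 56.5% did.

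The AMP-activated protein kinase senses the fall of ATP that the creatine system buffers. Of its 7 subunit genes, 6 were analysed and 5 tested: 4 rose, 0 fell and 1 missed the threshold, and the median was 0.15 on the log2 scale, where 24.5% of all genes tested passed as higher and 26.1% as lower. PRKAG2, a regulatory subunit, rose 1.69-fold (adjusted p = 0.00018). PRKAG1, PRKAB1 and PRKAB2 rose by 0.20, 0.15 and 0.15 on the log2 scale, and PRKAA1, a catalytic subunit, had 1355 and 1414 normalized reads on average in the RBP4 and control libraries (adjusted p = 0.25).

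**Figure D4:**
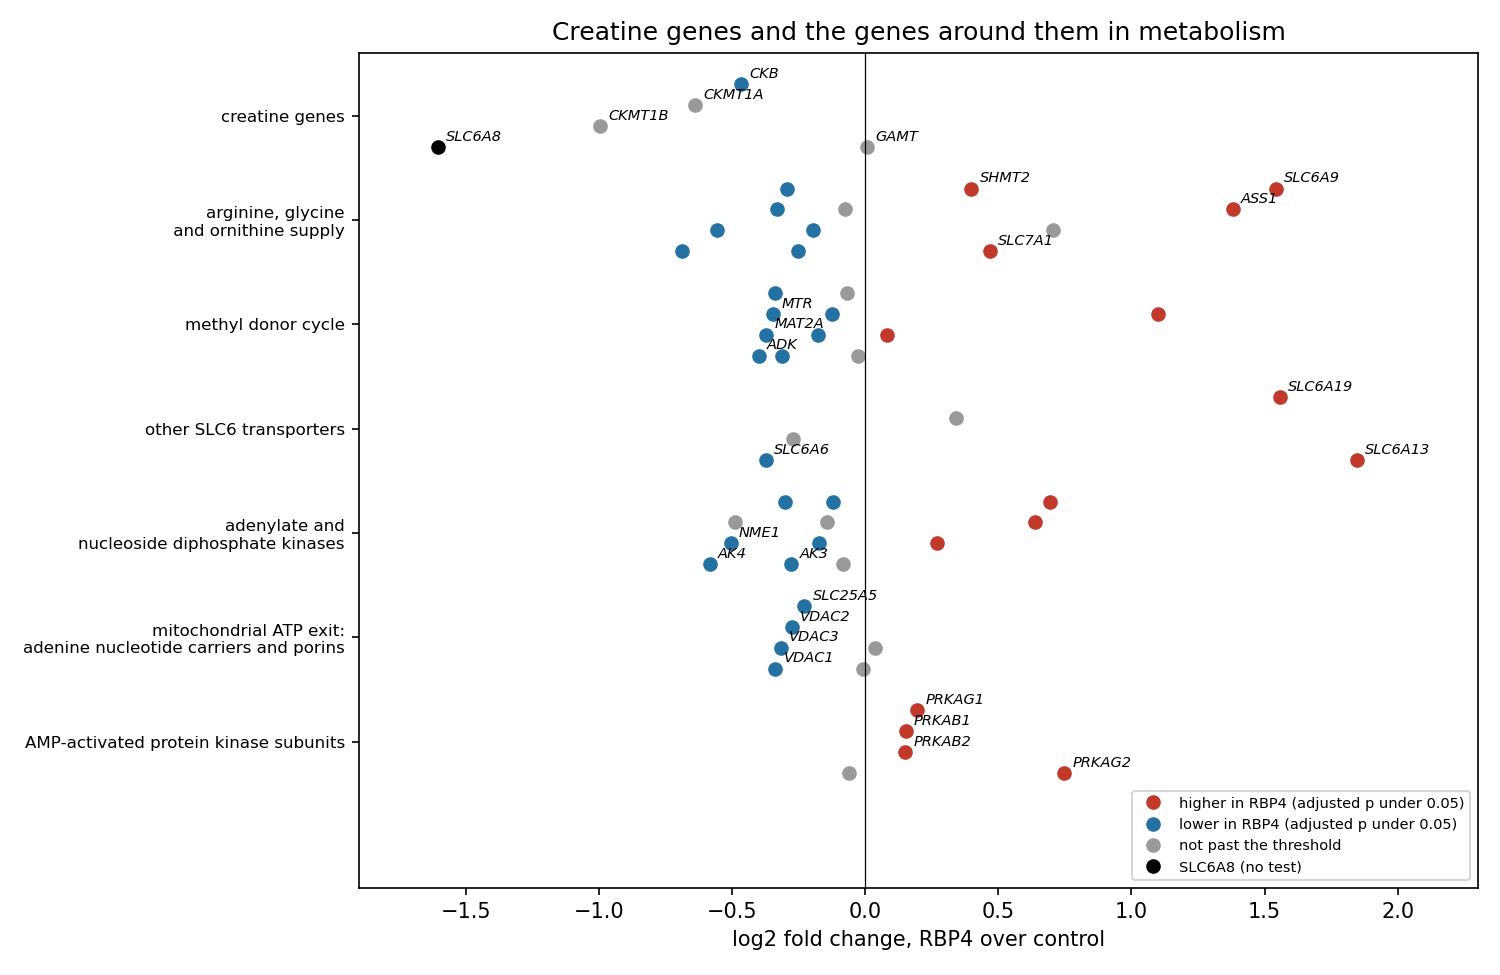
Log2 fold change of RBP4 over control for the tested genes of 7 lists, 1 point per gene, spread vertically for legibility, with names on some of them. Red points passed the test as higher, blue as lower, grey did not pass, and SLC6A8, in black, was not tested. SLC6A8 at -1.61 lies lowest of the genes shown, and SLC6A13 at 1.85, SLC6A19 at 1.56 and SLC6A9 at 1.54 lie highest. SLC6A13 passed the filter only through the RBP4 libraries.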

How the data were processed

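Per the labels' protocols, polyadenylated RNA of 6 libraries was selected with poly-T beads and made into libraries with a NEBNext Ultra kit, which does not mark the strand. No aligner or read counter is named in the sources used here. Deposited was 1 table of normalized signal (gene reads over 1 size factor per library) with group means. It also holds the authors' log2 fold changes with raw and adjusted p-values, per the file headers. Values of every library were whole multiples of 1 step (100% within 0.01 reads), from which reads were recovered for depth, edgeR and DESeq2. For control library 2 the step was so near 1 (1.01) that its recovery rests on the values alone. All 28847 gene identifiers had the start and end of GENCODE release 29 (GRCh38). No per-sample column was left unused (0 columns).

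Groups came from the sample titles. Genes with at least 10 normalized reads in at least 3 libraries were fitted with limma 3.58.1 (R 4.3.3) on log2(value + 1), with trended, robust variances. This understates changes of low genes. Tests were two-sided, adjusted by Benjamini-Hochberg over all 15676 genes tested, at a threshold of 0.05. The fit was tested on simulated data. Alternatives were pseudocounts of 5 and 0.1, no filter, at least 5 CPM in 3 libraries, scaling to total reads, edgeR 4.0.16, DESeq2 1.42.0, a replicate block and leaving out each library. CPM is a value scaled to an equal library total.

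The members and gene lists were chosen with earlier results of these data known. Named were all members, up to 4 genes per list with the smallest p past the threshold (otherwise the 2 most abundant), the 5 genes most like SLC6A8, its 3 rank neighbours on either side, and chromosome neighbours. Some genes that this rule names are not reported here. ARG2, ODC1, OAT, GCSH, SHMT1, SLC25A15, PRKAA1, MS4A4A, GATA1, RHAG and the low markers were named after their values were seen. Promoters are from RefSeq (GRCh38.p14) and transcripts from GENCODE.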

Additional observations from a re-analysis of the deposited data

How the results depend on the processing

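The count of 7934 genes past the threshold stayed within 1.5 times under the 14 alternatives, between 6510 (DESeq2) and 7999 (no filter), and between 6917 and 7451 without 1 library. Scaling to total reads gave 4819 higher and 2990 lower genes, against 3838 and 4096, and shifted the all-gene median to 0.066 on the log2 scale. CKB was lower and past the threshold under all 14, between -0.49 and -0.40, and GAMT was past it under none, between -0.065 and 0.075. SLC6A8 lay between -1.63 and -1.54, its value of -1.54 arising with scaling to total reads, by the construction of that scaling. CKMT1A passed without control library 3 (-0.93), in a range of -0.93 to -0.36 without 1 library, and CKMT1B did not pass in any setting in which it was tested (-1.38 to -0.26 without 1 library, the smallest without RBP4 library 2). Neither copy was tested at 5 CPM or more in 3 libraries. The log2 difference of GATM, which was under the filter, was 1.18 with a pseudocount of 1 and 2.36 with 0.1, and between 0.67 and 1.70 without 1 library, so it depends on the pseudocount and is no bound. Libraries with the same replicate number did not deviate together (correlations of deviations 0.0037, -0.0079 and -0.017). No pairing by number was visible, but correlations near 0 cannot show that the libraries were unpaired. A replicate block gave 7829 calls, with CKB still past the threshold (adjusted p = 1.2e-16). GATM had 0 to 6 reads per library, too few to test, whereas for CKMT1B libraries of the same group disagreed (50, 10 and 49 reads in RBP4 libraries, 96, 48 and 36 in control libraries).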
